A study of Mus musculus with 2 samples.

Results

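The 30 genes described here encode enzymes and carriers of fatty acid oxidation and ketone body formation, and their levels were measured in the liver of HFD-fed mice. They were chosen by gene symbol from a list of the pathway, by a rule that uses no measured value, out of 45777 gene symbols in the table. Earlier results of these data were known when the members were chosen. By compartment, 18 members act in mitochondria, 9 in peroxisomes and 2 in ketone body synthesis, and *Acad11*, which has been placed in both organelles, was kept apart. All 30 were present and held between 909 and 187818 estimated counts per library.

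Poly-A RNA was sequenced from liver of C57BL/6 mice under a high-fat diet, which both groups shared. The control group received AAV-GFP, a viral vector that expresses green fluorescent protein, and the other group received AAV-*Wee1-AS*, which expresses the long noncoding RNA *Wee1-AS*. Per the methods of the study, the AAV-*Wee1-AS* vector was of serotype AAV9 with a CMV promoter and so is not limited to hepatocytes, and both vectors were injected into the retro-orbital sinus. The serotype and promoter of AAV-GFP are not given in the sources used here. The comparison addresses how *Wee1-AS* overexpression bears on hepatic metabolism. According to the design text there were 4 liver samples, while 1 library per group was analysed here, and nothing in the labels says whether mice were pooled. The difference between the groups has no replicate check, and no p-value is given. *Wee1-AS* itself was not analysed here.

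Fatty acids are taken apart in repeated cycles of oxidation, hydration, a second oxidation and thiolytic cleavage, and each cycle releases acetyl-CoA. Long chains enter mitochondria through the carnitine shuttle, whereas very long and branched chains are first shortened in peroxisomes, where the initial step is an oxidase that gives hydrogen peroxide. In liver, much of the acetyl-CoA is condensed to ketone bodies, which are exported to other tissues, and many genes of these pathways are targets of the nuclear receptor PPARα.

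The AAV-GFP library held 55466182 and the AAV-*Wee1-AS* library 48079335 estimated counts, and the 30 members took 1.51% and 1.41% of them. Of the 8 hepatocyte markers, 7 were in the table, with a summed level of 103364 and 103116 TPM (transcript abundance per length with the same total in both libraries). The sum was led by *Alb* (37459 and 53289 TPM), and 2 of the 7 had an interval above a ratio of 1 and 5 below. Markers of other cells were mixed in direction within most lists. The 6 Kupffer cell markers summed to 333 and 270.1 TPM, a sum led by *Cd5l* (208 and 121 TPM), while 3 of them had an interval above a ratio of 1 and 2 below, with a median log2 ratio of 0.75. The 6 stellate cell markers summed to 286 and 238 TPM, led by *Ecm1* (178 and 123 TPM), with 3 above and 3 below. Of the 5 sinusoidal endothelial markers (132 and 102 TPM), 1 was above and 3 below, and the 3 erythroid markers (2037 and 1100.4 TPM) were all below. Summed levels were 3.77 and 3.59 TPM over 4 cholangiocyte markers, 16.2 and 16.9 TPM over 4 adipocyte markers, with *Lep* and *Plin1* at 0 in both libraries, and 0.727 and 0.0779 TPM over 4 skeletal muscle markers, with 3 of them at 0 in both. Of the 6 pericentral hepatocyte markers (10119 and 11528 TPM), 4 were above and 2 below, and of the 6 periportal ones (2838 and 2356 TPM), 1 was above and 4 below. The part of these differences in the members' values was not tested. In bulk RNA, fewer cells of a type and less RNA per cell cannot be told apart.

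Most members differed by less than 2-fold between the libraries. Ratios are of the AAV-*Wee1-AS* library over the AAV-GFP library, from counts scaled by TMM, and the limits were a ratio above 2 or below 0.5. Past these limits lay 2 of 30 members, *Acadsb* and *Etfa*, both higher in the AAV-*Wee1-AS* library, against 31.0% of the 15857 genes that had 10 or more counts in either library. Above 2 lay 22.2% of all genes and below 0.5 lay 8.71%, which held no member. Among the 2996 genes that reached the 3942 summed counts of *Acox3*, the member with the fewest, 14.8% were past 2-fold. The log2 ratio lay within 0.5 of 0 for 19 members. The members' median log2 ratio was -0.08, between that of all genes (-0.02) and that of these 2996 genes of like or higher counts (-0.25).

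With TMM scaling and all transcripts summed, every member differed between the libraries by more than counting error. The exact 95% interval of the ratio, which covers counting error only, lay wholly above 1 for 13 members and wholly below 1 for 17. Over all genes, it lay wholly above 1 for 39.1% and wholly below for 38.0%. An interval wholly above a ratio of 2 was found for the same 2 members, against 16.0% of all genes. This does not hold under each alternative. The leading transcript of *Acox2* had a log2 ratio of 0.01 (-0.03 to 0.05). With upper quartile scaling the log2 ratio was 0.0022 for *Acad11* and 0.037 for *Acadl*. That of *Decr2* was 0.018 with library totals and 0.025 with totals without the 20 most abundant genes. Variation between mice is not part of these intervals.

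**Figure D1:**
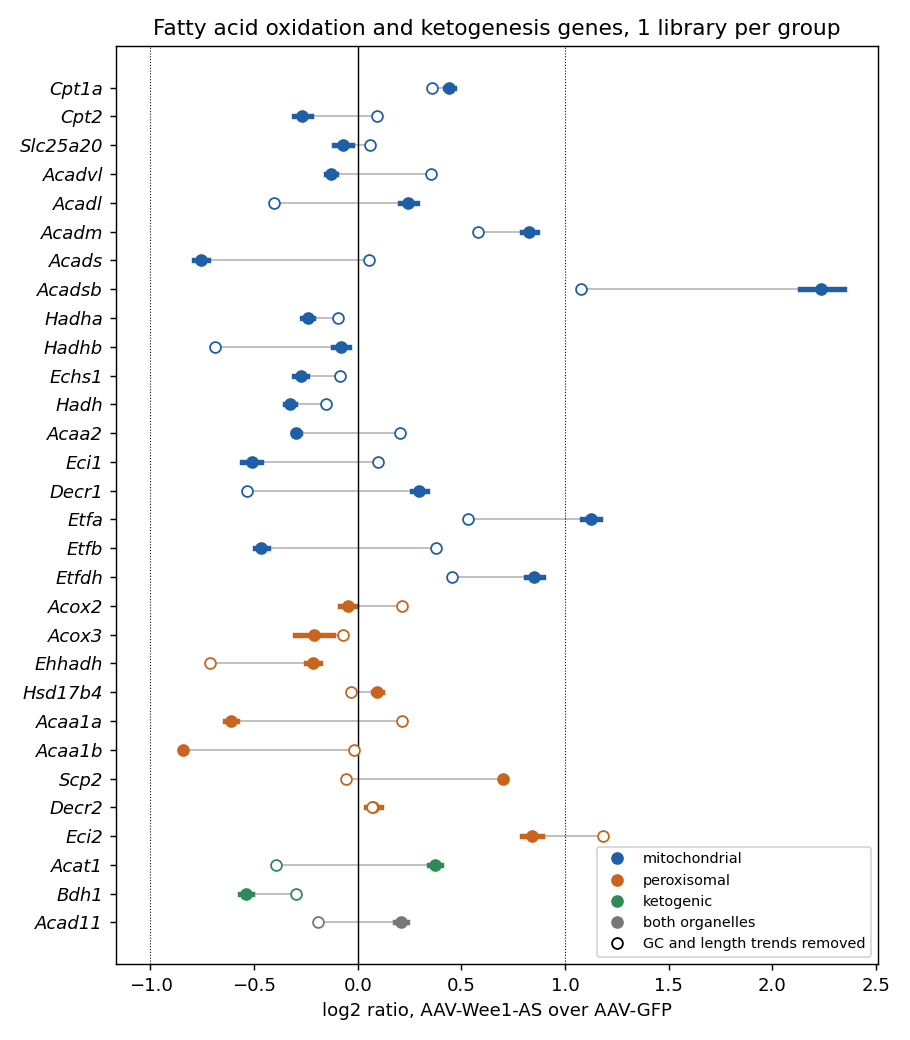
The log2 ratio of each of the 30 members (AAV-*Wee1-AS* over AAV-GFP, 1 library each) is shown by filled points coloured by compartment, with bars for the exact 95% counting interval, and open points give the value after removal of the trends with GC content and length over all genes. Dotted lines mark 2-fold, which only *Acadsb* and *Etfa* pass as measured and only *Acadsb* and *Eci2* pass after removal of the trends.

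The order of the members followed the base composition of their transcripts. Of the 13 members with a GC content of 50% or less, 11 were higher in the AAV-*Wee1-AS* library, with a median log2 ratio of 0.30, and their summed level was 3364 and 4672 TPM in the AAV-GFP and AAV-*Wee1-AS* libraries. Of the 17 members with a higher GC content, 15 were lower, with a median of -0.28, and their summed level was 9753 and 6900 TPM. The exceptions were *Hadhb* and *Ehhadh*, which were lower at a low GC content, and *Cpt1a* and *Eci2*, which were higher at a high GC content. The Spearman coefficient between log2 ratio and GC content was -0.78 across the 30 members and -0.69 across the 14995 genes with a known GC content. These points come from the same pair of libraries, and genes are not independent replicates. With all genes split by GC content into 10 equal bins, the median log2 ratio went from 1.49 in the lowest bin to -0.70 in the highest.

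The following coding stretches show the difference in composition for members with extreme or opposite ratios. Each lies within 1 exon, was chosen as the 90 bases nearest to its transcript in GC content, and has G and C in capitals. They were read from GENCODE M21 on GRCm38, the assembly named mm10. *Acadsb* is from exon 4 of 11 (chr7:131428492-131428581, plus strand, transcript GC content 42.7%), *Etfa* from exon 2 of 12 (chr9:55500028-55500117, minus strand, 45.04%), *Etfb* from exon 5 of 6 (chr7:43456479-43456568, plus strand, 57.1%), *Acadm* from exon 5 of 12 (chr3:153938561-153938650, minus strand, 48.02%), *Acads* from exon 2 of 10 (chr5:115117565-115117654, minus strand, 60.1%) and *Eci2* from exon 3 of 10 (chr13:34990718-34990807, minus strand, 51.7%).
Acadsb: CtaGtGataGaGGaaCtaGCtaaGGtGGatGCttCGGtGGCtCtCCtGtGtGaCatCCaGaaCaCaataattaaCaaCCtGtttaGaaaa
Etfa: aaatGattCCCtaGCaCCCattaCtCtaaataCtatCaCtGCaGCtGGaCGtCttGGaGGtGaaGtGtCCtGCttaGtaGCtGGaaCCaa
Etfb: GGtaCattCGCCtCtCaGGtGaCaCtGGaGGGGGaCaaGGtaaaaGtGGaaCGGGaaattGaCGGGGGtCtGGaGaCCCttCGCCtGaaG
Acadm: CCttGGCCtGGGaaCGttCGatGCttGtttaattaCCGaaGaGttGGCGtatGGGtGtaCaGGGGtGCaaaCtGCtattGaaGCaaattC
Acads: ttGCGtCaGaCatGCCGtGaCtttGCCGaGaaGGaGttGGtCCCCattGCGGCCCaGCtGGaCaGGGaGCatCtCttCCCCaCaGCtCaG
Eci2: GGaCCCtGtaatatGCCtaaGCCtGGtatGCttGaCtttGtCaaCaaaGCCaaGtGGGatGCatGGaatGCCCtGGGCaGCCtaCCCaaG

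**Figure D2:**
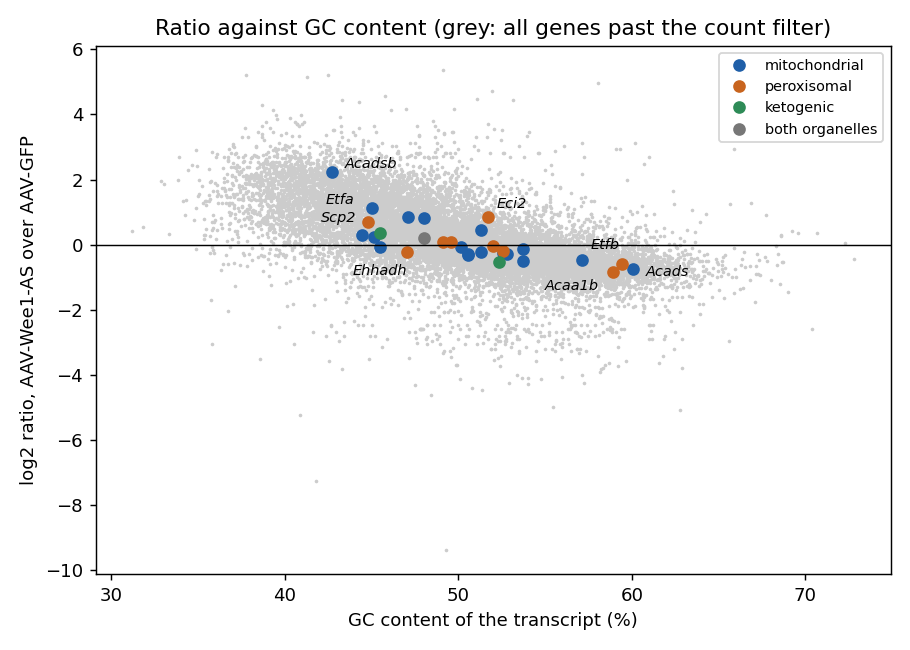
Each point is a gene, with the GC content of its transcript in percent on the horizontal axis and the log2 ratio of AAV-*Wee1-AS* over AAV-GFP on the vertical axis, grey for all genes and coloured by compartment for the 30 members. Members follow the downward slope of all genes from *Acadsb* at 42.7% to *Acads* at 60.1%, and *Eci2* lies in the upper part of the cloud at its GC content.

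Because all genes shared this trend, each ratio is also given after trends over all genes with GC content and with length had been removed, here called the adjusted log2 ratio. The sign differed from the measured one for 15 of the 30 members. With the GC trend alone removed it differed for 12, and *Cpt2*, *Slc25a20*, *Acads*, *Acaa2* and *Eci1* kept their measured sign, while *Acox3* and *Decr2* did not. After adjustment, 16 members lay above a ratio of 1 and 14 below, against 50.3% and 49.7% of all genes. Past 2-fold lay *Acadsb* and *Eci2*, both higher, against 6.51% of all genes above 2 and 7.33% below 0.5. The Spearman coefficient with GC content was then 0.25 across the members, and the spread over members (SD) was 0.44 in place of 0.65. With 1 library per group, library and treatment cannot be told apart as the source of a trend that all genes share.

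The 3 members of the carnitine shuttle differed in direction. *Cpt1a*, the carnitine palmitoyltransferase of the outer mitochondrial membrane and the regulated entry step, had 31370 counts under AAV-GFP and 35483 under AAV-*Wee1-AS*. Its log2 ratio was 0.44 (interval 0.42 to 0.46) and its adjusted value 0.36, so it was higher both before and after adjustment. *Cpt2*, which rebuilds acyl-CoA on the inner side of the inner membrane, had 11626 and 8038 counts, a log2 ratio of -0.27 (-0.31 to -0.23). *Slc25a20*, the carnitine and acylcarnitine carrier between them, had 9110 and 7225 counts, a log2 ratio of -0.07 (-0.12 to -0.03). The adjusted values of these last genes were 0.09 and 0.06, on the other side of 0, but with the GC trend alone removed they were -0.0085 and -0.13. The level of *Cpt1a* was 1.47 times that of *Cpt2* in the AAV-GFP library and 2.41 times in the AAV-*Wee1-AS* library, in TPM.

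The 5 acyl-CoA dehydrogenases, which catalyse the first oxidation in mitochondria, spanned the widest range of any role as measured (-0.76 to 2.24). After adjustment the range was widest for the peroxisomal members (-0.71 to 1.18, against -0.40 to 1.08 for the dehydrogenases). *Acadsb*, the dehydrogenase of short branched chains in isoleucine breakdown, had 909 counts under AAV-GFP and 3573 under AAV-*Wee1-AS*. It was 4.71 times as high (log2 ratio 2.24, 2.13 to 2.35), the highest ratio of all members, and it also had the lowest GC content and the lowest level in the AAV-GFP library, at 8.22 TPM against 38.2 TPM. After adjustment its log2 ratio was 1.08, still past 2-fold. *Acadm*, for medium chains, had 10703 and 15834 counts, a log2 ratio of 0.83 (0.79 to 0.86) and an adjusted value of 0.58. *Acads*, for short chains, had 22718 and 11208 counts, a log2 ratio of -0.76 (-0.79 to -0.72) and an adjusted value of 0.05. The level of *Acadm* was thus 0.427 times that of *Acads* in the AAV-GFP library and 1.28 times in the AAV-*Wee1-AS* library, a change of order within the same enzyme family. *Acadvl*, for very long chains, had 28117 and 21405 counts, a log2 ratio of -0.13 (-0.16 to -0.10). *Acadl*, for long chains, had 10125 and 9984 counts, which after scaling is a log2 ratio of 0.24 (0.20 to 0.28). The adjusted value of *Acadvl* was 0.35 and that of *Acadl* was -0.40, both opposite in sign to the measured ones. Summed over the 5 genes, the level was 1083 TPM in the AAV-GFP library and 1062 TPM in the AAV-*Wee1-AS* library.

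The enzymes of the following 3 steps were all lower in the AAV-*Wee1-AS* library, by a smaller amount than the 2-fold limit. *Hadha*, the alpha subunit of the trifunctional protein that carries hydratase and dehydrogenase activity for long chains, had 31447 counts under AAV-GFP and 22150 under AAV-*Wee1-AS*, a log2 ratio of -0.24 (-0.27 to -0.22). *Hadhb*, its thiolase subunit, had 12376 and 9746 counts, a log2 ratio of -0.08 (-0.12 to -0.04). The levels of these subunits kept nearly the same proportion, with *Hadha* at 1.91 and 1.74 times the level of *Hadhb*, whereas their adjusted log2 ratios differed by 0.60 (-0.09 and -0.69). *Echs1*, the short-chain enoyl-CoA hydratase, had 18674 and 12855 counts, a log2 ratio of -0.28 (-0.31 to -0.24). *Hadh*, the medium and short chain hydroxyacyl-CoA dehydrogenase, had 33509 and 22246 counts, a log2 ratio of -0.33 (-0.35 to -0.30). *Acaa2*, the mitochondrial thiolase and the most abundant mitochondrial member in TPM, had 66645 and 45184 counts, a log2 ratio of -0.30 (-0.31 to -0.28). Summed over these 5 genes, the level was 2830 TPM in the AAV-GFP library and 2291 TPM in the AAV-*Wee1-AS* library, a ratio of 0.810. After adjustment, 4 were below 0, with *Hadhb* lowest at -0.69, and *Acaa2* was at 0.20.

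The auxiliary enzymes, which prepare unsaturated fatty acids for the cycle, went in opposite directions. *Eci1*, an enoyl-CoA isomerase of mitochondria, had 10757 counts under AAV-GFP and 6286 under AAV-*Wee1-AS*, a log2 ratio of -0.51 (-0.56 to -0.47). *Decr1*, the mitochondrial dienoyl-CoA reductase, had 12798 and 13092 counts, a log2 ratio of 0.30 (0.26 to 0.33). Both changed sign after adjustment, to 0.10 for *Eci1* and -0.53 for *Decr1*, but *Eci1* was at -0.13 with the GC trend alone removed.

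The electron transfer genes pass electrons from the acyl-CoA dehydrogenases to the respiratory chain. *Etfa*, the alpha subunit of electron transfer flavoprotein, had 6274 counts under AAV-GFP and 11399 under AAV-*Wee1-AS*, 2.18 times as high (log2 ratio 1.12, 1.08 to 1.17). *Etfb*, the beta subunit of the same heterodimer, had 22618 and 13642 counts, a log2 ratio of -0.47 (-0.50 to -0.44). The subunits therefore differed in direction, and the level of *Etfa* was 0.171 times that of *Etfb* in the AAV-GFP library and 0.516 times in the AAV-*Wee1-AS* library. *Etfdh*, the dehydrogenase that hands the electrons to ubiquinone, had 8449 and 12703 counts, a log2 ratio of 0.85 (0.81 to 0.89). The adjusted values of the 3 genes lay close together, between 0.38 for *Etfb* and 0.53 for *Etfa*. *Etfa* and *Etfb*, as in the printed stretches, differ in GC content, at 45.04% and 57.1%.

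Among the 9 peroxisomal members, the most abundant ones differed in direction. *Acaa1b*, a peroxisomal thiolase that is a known PPARα target in mouse liver, had 187818 counts under AAV-GFP and 87201 under AAV-*Wee1-AS*, a log2 ratio of -0.84 (-0.85 to -0.83), the lowest of all members. With curated transcripts only, its log2 ratio was -2.15, from a small share of its counts. *Scp2*, which encodes sterol carrier protein and a peroxisomal thiolase for branched chains, had 120054 and 162796 counts, a log2 ratio of 0.70 (0.69 to 0.71). In TPM, *Acaa1b* was at 2.73 times the level of *Scp2* in the AAV-GFP library and at 0.939 times in the AAV-*Wee1-AS* library, so that their order changed. After adjustment they were at -0.02 and -0.06. *Acaa1a*, the paralogous thiolase, had 26832 and 14645 counts, a log2 ratio of -0.61 (-0.64 to -0.58) and an adjusted value of 0.21. *Acaa1a* and *Acaa1b* shared 96.5% of their 1272 coding bases (1228 identical), and reads could be split between them, so each value is uncertain. Summed, they had 214650 and 101846 counts, a log2 ratio of -0.81.

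*Eci2*, a separate gene for an enoyl-CoA isomerase, counted here as peroxisomal, was higher although its GC content was above 50%. It had 6022 counts under AAV-GFP and 8991 under AAV-*Wee1-AS*, a log2 ratio of 0.84 (0.79 to 0.89), and its adjusted value of 1.18 was the highest of all members. The level of *Eci1* was 2.56 times that of *Eci2* in the AAV-GFP library and 1.02 times in the AAV-*Wee1-AS* library. With the GC trend alone removed, *Eci2* was at 0.99, just under the 2-fold limit and below *Acadsb* at 1.04.

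*Ehhadh*, the bifunctional hydratase and dehydrogenase of the straight-chain pathway, had 18088 counts under AAV-GFP and 12977 under AAV-*Wee1-AS*, a log2 ratio of -0.22 (-0.25 to -0.18). Its adjusted value of -0.71 was the lowest of all members. With the GC trend alone removed it was at -0.77, and *Hadhb* was lowest at -0.88. *Hsd17b4*, its counterpart for branched chains and bile acid precursors, had 33072 and 29414 counts, a log2 ratio of 0.09 (0.07 to 0.12) that turned negative with upper quartile scaling and after adjustment (-0.03). *Acox2*, the oxidase of bile acid intermediates, had 12566 and 10133 counts, a log2 ratio of -0.05 (-0.08 to -0.01) that turned positive with curated transcripts only and after adjustment (0.22). These values near 0 leave the direction of both genes dependent on the setting. *Acox3*, an oxidase of branched chains, had 2292 and 1650 counts, a log2 ratio of -0.21 (-0.30 to -0.12). *Decr2*, the peroxisomal dienoyl-CoA reductase, had 13842 and 12146 counts, a log2 ratio of 0.08 (0.04 to 0.11), which turned negative with upper quartile scaling and with the GC trend alone removed. The adjusted values were -0.07 for *Acox3*, which was at 0.05 with the GC trend alone removed, and 0.07 for *Decr2*.

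The pair of ketogenic members differed in direction as measured and had like values after adjustment. *Acat1*, the mitochondrial acetoacetyl-CoA thiolase, had 17149 counts under AAV-GFP and 18480 under AAV-*Wee1-AS*, a log2 ratio of 0.37 (0.34 to 0.40). *Bdh1*, which reduces acetoacetate to hydroxybutyrate, had 27981 and 16041 counts, a log2 ratio of -0.54 (-0.57 to -0.51). After adjustment both were below 0, at -0.40 and -0.30. *Acad11*, a dehydrogenase of long chains, had 20994 and 20207 counts, a log2 ratio of 0.21 (0.18 to 0.24) and an adjusted value of -0.19.

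By compartment, the classes had like medians and wide, overlapping ranges. The median log2 ratio was -0.11 over the 18 mitochondrial members (-0.76 for *Acads* to 2.24 for *Acadsb*, 7 higher and 11 lower). It was -0.05 over the 9 peroxisomal members (-0.84 for *Acaa1b* to 0.84 for *Eci2*, 4 higher and 5 lower) and -0.08 over the ketogenic pair. After adjustment, the medians were 0.10, -0.02 and -0.35. Summed levels were lower in the AAV-*Wee1-AS* library in these 3 classes. They went from 5882 to 5311 TPM for the mitochondrial members (ratio 0.903), from 6615 to 5663 TPM for the peroxisomal members (0.856) and from 429 to 382 TPM for the ketogenic pair (0.891). Without *Acaa1b* and *Scp2*, the other 7 peroxisomal members summed to 1508 and 1418 TPM (0.940). Over all 30 members, the sum was 13117 TPM in the AAV-GFP library and 11572 TPM in the AAV-*Wee1-AS* library.

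**Figure D3:**
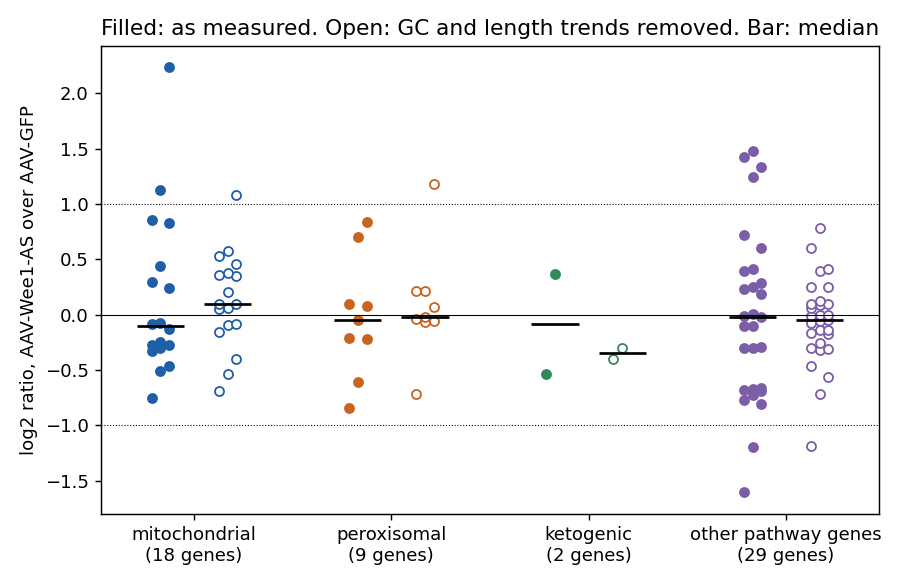
Each point is the log2 ratio of a gene (AAV-*Wee1-AS* over AAV-GFP, vertical axis) in 4 groups of genes, filled as measured and open after removal of the GC and length trends, with bars for medians and dotted lines at 2-fold. The ranges of the mitochondrial and peroxisomal members overlap, with medians of -0.11 and -0.05, and the 29 other pathway genes run from -1.60 to 1.48.

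Levels differed between members far more than between the libraries. In TPM, which accounts for transcript length, the AAV-GFP library ranged from 8.22 for *Acadsb* and 17.4 for *Acox3* to 1349 for *Acaa2*, 1368 for *Scp2* and 3738 for *Acaa1b*. The AAV-*Wee1-AS* library ranged from 14.7 for *Acox3* and 38.2 for *Acadsb* to 1079 for *Acaa2*, 2056 for *Acaa1b* and 2189 for *Scp2*. Across the 30 members, the Spearman coefficient between the AAV-GFP level in TPM and the log2 ratio was -0.64, so the members with higher control levels tended to lower ratios. Both axes hold the AAV-GFP value, and this is a description only.

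**Figure D4:**
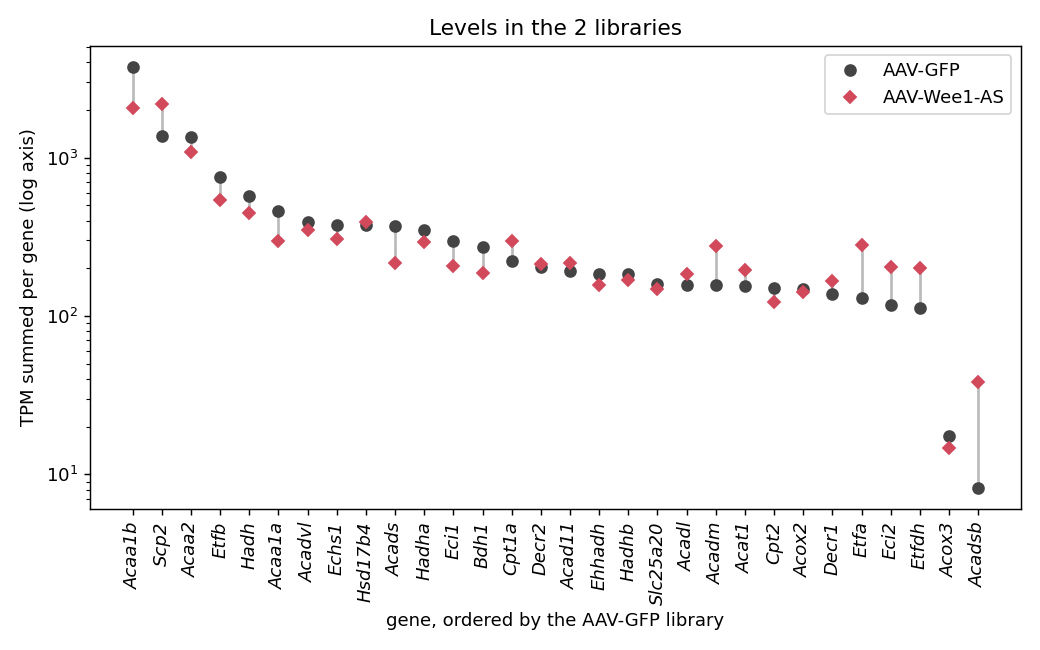
The level of each of the 30 members in TPM (logarithmic vertical axis) is shown in the AAV-GFP library (circles) and the AAV-*Wee1-AS* library (diamonds), with genes ordered by the AAV-GFP level and lines joining the libraries. *Acaa1b* and *Scp2* change places at the upper end, and *Acadsb* at the lower end has the longest line, from 8.22 to 38.2 TPM.

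Transcript variants added detail for few members. The table listed 75 transcripts for the 30 genes, and 17 genes had 1 listed transcript. Of the other 13, 7 had over 90% of their counts in the leading transcript in both libraries. For *Ehhadh*, the curated transcript held 84.7% of counts (exact interval 84.2 to 85.2) in the AAV-GFP library and 74.5% (73.8 to 75.3) in the AAV-*Wee1-AS* library, while a predicted transcript had 2768 and 3306 counts. For *Acaa1b*, the curated transcript had 15771 and 2959 counts, a share of 8.40% and 3.39%, and a predicted transcript held 71.9% and 70.5%. The leading transcript of *Eci2* held 41.7% and 33.5% of counts among 12 listed. Counts were shared out between overlapping transcripts by estimation, and the intervals do not cover the error of that step.

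Some members share sequence with other genes. Over stretches of 100 bases, the read length, 23 of the 30 members had none in common with another gene in the GENCODE transcript that gave the GC content. *Hadhb* shared 53.2% of its stretches, each of them found in *Gm13910*, which had 727 and 552 counts in the AAV-GFP and AAV-*Wee1-AS* libraries. *Scp2* shared 32.2% with *Scp2-ps2*, and *Acaa1a* and *Acaa1b* shared 21.6% and 22.6% with each other. *Etfb* shared 65.2% with *Gm45233*, a gene model of the same strand that overlaps 617 exonic bases of it. *Acad11* shared 2.00% and *Eci2* 1.34%, the latter with its paralog *Eci3*, which had 0 and 41 counts. On the opposite strand, *Acadvl* overlapped *Dvl2* by 976 exonic bases, and *Dvl2* had 254 and 136 counts. The libraries were made with a stranded kit, but use of strand in counting is not given in the sources used here.

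By median, promoter windows of the members held more CpG than all promoter windows. Of the 30 genes, 26 matched the RefSeq promoter windows of GRCm38.p6, which run from 250 bases before to 50 after a start, with 28 windows in all. *Decr1*, *Hsd17b4*, *Acaa2* and *Acat1* had no match. The median GC content was 59.5%, against 52.7% over all 32851 windows, and the median number of CpG was 16.5 against 7. Member windows ranged from 2 to 34 CpG, with the lowest numbers at *Acox2* (4 and 2) and *Acaa1b* (4). *Hadha* and *Hadhb*, which lie head to head with 272 bases between their starts, shared 228 bases of their windows, and both were lower in the AAV-*Wee1-AS* library. The *Hadhb* window (chr5:30155003-30155302, plus strand) is printed with its 24 CpG in capitals as the example of these overlapping windows.
Hadhb: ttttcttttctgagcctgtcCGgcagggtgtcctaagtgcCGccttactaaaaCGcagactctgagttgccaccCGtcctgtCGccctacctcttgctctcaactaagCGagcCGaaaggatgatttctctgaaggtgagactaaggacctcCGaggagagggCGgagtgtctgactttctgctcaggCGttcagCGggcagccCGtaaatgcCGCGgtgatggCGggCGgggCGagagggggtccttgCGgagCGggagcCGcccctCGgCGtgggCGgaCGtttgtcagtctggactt

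The promoter windows of the paralogs *Acaa1a* and *Acaa1b* differed from each other, although their coding sequences are nearly the same. The *Acaa1b* window does not reach chr9:119156977, where its leading transcript starts. That predicted transcript held most of the gene's counts in both libraries, and the sequence around its start was not examined. Searched on both strands, CCAAT was in 11 of 28 member windows against 37.4% of all windows, and the windows of these paralogs had 4 matches each. The *Acaa1b* window had a GC content of 43.7% and 4 CpG, and the *Acaa1a* window 53.3% and 10 CpG. They are printed with CCAAT and its reverse complement ATTGG in capitals, at chr9:119341044-119341343 (plus strand) for *Acaa1a* and chr9:119157044-119157343 (minus strand) for *Acaa1b*, where 2 matches on opposite strands overlap.
Acaa1a: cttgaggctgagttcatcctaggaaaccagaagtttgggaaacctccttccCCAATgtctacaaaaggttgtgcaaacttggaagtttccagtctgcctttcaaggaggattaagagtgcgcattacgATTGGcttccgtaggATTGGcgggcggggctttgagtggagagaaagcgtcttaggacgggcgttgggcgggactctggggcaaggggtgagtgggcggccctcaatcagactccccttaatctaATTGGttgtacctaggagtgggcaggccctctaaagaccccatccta
Acaa1b: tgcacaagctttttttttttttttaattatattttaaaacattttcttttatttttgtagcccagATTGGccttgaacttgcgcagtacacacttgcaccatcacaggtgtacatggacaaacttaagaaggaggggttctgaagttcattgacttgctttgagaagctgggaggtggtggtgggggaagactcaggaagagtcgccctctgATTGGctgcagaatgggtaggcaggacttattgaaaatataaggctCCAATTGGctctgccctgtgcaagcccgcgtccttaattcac

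AGGTCA, the half-site bound by nuclear receptors, was found on either strand in 5 of 28 member windows (*Acadm*, *Scp2*, *Echs1*, *Acadvl* and *Cpt1a*), against 16.3% of all windows. Of these 5 genes, *Acadm*, *Scp2* and *Cpt1a* were higher in the AAV-*Wee1-AS* library and *Echs1* and *Acadvl* were lower. Its direct repeat with 1 base between the copies was in 0 of 28 windows and in 0.0396% of all. TATAAA was in 0 of 28, against 13.6%. No match says only that these letters are not in the window.

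Of 29 other genes of these pathways, all were past the count filter, 4 were above 2-fold and 2 below 0.5. After adjustment, 0 of the 29 were above 2-fold and 1 was below 0.5, against 6.51% and 7.33% of all genes. *Crot*, the peroxisomal carnitine octanoyltransferase, had 9381 counts under AAV-GFP and 21794 under AAV-*Wee1-AS*, a log2 ratio of 1.48 (1.44 to 1.51). *Abcd3*, a peroxisomal fatty acid transporter, had 14236 and 29873 counts, a log2 ratio of 1.33 (1.30 to 1.36). *Abcd2*, a transporter of the same family, had 410 and 922 counts, a log2 ratio of 1.43 (1.26 to 1.60). These 3 genes act at peroxisomes, like the higher members *Scp2* and *Eci2*, and their adjusted values were 0.60, 0.41 and -0.17. *Oxct1*, the ketone body using transferase that hepatocytes largely lack, had 100 and 200 counts, a log2 ratio of 1.25 (0.91 to 1.62). *Cpt1b*, the muscle type carnitine palmitoyltransferase, had 373 and 101 counts, a log2 ratio of -1.60 (-1.95 to -1.30). The second gene below 0.5 was *Cpt1c*, the brain type, with 33 and 11 counts, which was named after its values had been seen. The adjusted values of *Oxct1*, *Cpt1b* and *Cpt1c* were 0.78, -1.19 and -0.71. The median log2 ratio of the 29 genes was -0.02, near the -0.08 of the members, and the share past 2-fold among all genes was 31.0%.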

How the data were processed

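Poly-A RNA of liver was sequenced with paired reads of 100 bases, 1 library per group. The authors deposited 1 table of 129299 RefSeq transcripts of build mm10 with an estimated count, an FPKM and a TPM value per library. The deposited estimated counts are not normalized, follow FPKM times length and are shared out between overlapping transcripts. The submitters' processing notes name Trimmomatic 0.38, HISAT2 2.1.0, SAMtools 1.9 and StringTie 2.1.3b.

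Estimated counts were summed per gene symbol (45777 symbols), scaled by TMM (edgeR 4.0.16 in R 4.3.3; factors of 1.02 for the control and 0.980 for the other library), and a prior count of 2 was added for log2 ratios. Genes that had 10 or more counts in either library were kept. The study joined limits of 2-fold (ratio above 2, below 0.5) to a p-value. Only the fold limits were used, since a p-value cannot be computed from 1 library per group. Exact Clopper-Pearson 95% intervals came from the counts of the 2 libraries (scipy 1.17.1). They cover counting error only. GC content was taken from the GENCODE M21 transcript linked to the leading RefSeq transcript for 29 members and nearest in length for *Acaa1b*. That transcript had 6081 bases for *Acadsb*, 4017 for *Hadha* and 1711 for *Bdh1*, against 3348, 2716 and 3098 deposited. Length trends used the deposited lengths. Trends were removed by lowess with a span of 0.3 over 5 cycles. Steps were tested on simulated data.

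The members and lists were chosen with earlier results of these data known. All 30 members are named, and other pathway genes only with at least 100 counts in 1 library and a ratio past 2-fold, with 1 exception stated. Alternatives were other scalings (library totals, DESeq2 1.42.0 size factors, upper quartile), filters, prior counts, units, transcript choices, removal of trends and other assignments of members to classes. Those on the GC trend alone, *Acad11*, *Eci2* and the *Acaa1* paralogs were chosen after seeing the data. The planned protein features were not computed.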

Additional observations from a re-analysis of the deposited data

How the results depend on the processing

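*Acadsb* stayed past 2-fold under each alternative, and *Etfa* under each except upper quartile scaling and removal of trends. With upper quartile scaling, which moved the median of all genes by -0.20, 1 member lay above 2 (*Acadsb*) and 1 below 0.5 (*Acaa1b*). With curated transcripts only, 1 member lay below 0.5 (*Acaa1b*), and with the GC trend alone removed, 1 lay above 2 (*Acadsb*), with *Eci2* at a log2 ratio of 0.99. The share of higher genes among all calls was 71.9%, against 77.3% with 10 counts in both libraries, 77.0% in FPKM, 78.6% in TPM, 65.1% with curated and 64.1% with leading transcripts, 56.8% with upper quartile scaling, 50.3% with the GC trend removed and 47.0% with the GC and length trends removed.

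The mitochondrial median of -0.11 became -0.16 with library totals, -0.31 with the upper quartile, -0.16 without the 20 most abundant genes, -0.17 in FPKM, -0.14 in TPM, -0.15 with leading transcripts, 0.10 with both trends removed and -0.040 with the GC trend removed. The peroxisomal median of -0.05 became -0.10, -0.25, -0.097 and -0.093 under the first 4 of these, 0.029 with curated and 0.011 with leading transcripts, 0.014 with *Acad11* counted as peroxisomal, -0.13 with *Eci2* counted as mitochondrial and 0.014 with the *Acaa1* paralogs summed. The ketogenic median of -0.08 became -0.14, -0.29, -0.13 and -0.13 under those 4, -0.35 with both trends and -0.37 with the GC trend removed. The sign of single members differed from the measured one for 15 members with both trends removed, 12 with the GC trend removed, 2 with the upper quartile (*Hsd17b4*, *Decr2*) and 1 with curated or with leading transcripts (*Acox2*). The cause was not tested.

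No paired analysis was possible because there was 1 library per group. No library was left out either. Variation between mice is unknown, and depth limits the precision of *Acadsb* and *Acox3* most among the members.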
